A study of Mus musculus with 2 samples.

Results

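Nanog occupancy at 8 genes of the leukemia inhibitory factor (LIF) and STAT3 pathway was read from a ChIP-seq peak list of mouse Embryonic Stem Cells (ESCs). The 8 genes encode the cytokine (Lif), its receptor subunits (Lifr and Il6st), a receptor-bound kinase (Jak1), the transcription factor that this kinase activates (Stat3) and targets of that factor (Socs3, Pim1 and Pim3). They were taken by name out of 21938 protein-coding genes, and each was given the distinct peaks whose centre lay within 100 kb of its transcription start site (TSS), together with the peaks for which it was the nearest protein-coding gene. Of 8735 distinct peaks on the assembled chromosomes, 21 lay within 100 kb of a TSS of these genes, 15 had 1 of them as the nearest gene, and 22 met either condition.

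The cells were Bruce-4, an established mouse ESC line, grown in serum medium (20% FBS) with mLIF at 20 ng/mL. Chromatin was precipitated with a rabbit monoclonal antibody against Nanog in 1 library, and 1 library of input chromatin was made from the same line. The peak list came from the first, and the input was not analysed here. The list gives positions and no strength, and with 1 library no value has a replicate error and no condition can be compared with another. Since peaks carry no expression values, the identity of the cells could not be checked against markers, and a gene without a peak is one without a listed peak, not one shown to lack Nanog.

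LIF binds a receptor made of Lifr and Il6st (also known as gp130), which brings Jak1 and related kinases together. The kinases phosphorylate Stat3, which moves to the nucleus and activates genes, among them Socs3, an inhibitor that feeds back on the receptor. In mouse ESCs this pathway sustains self-renewal in culture, and Nanog is a homeodomain transcription factor of the same pluripotency network. The cells examined were supplied with LIF in the medium.

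Nanog peaks were listed near 7 of the 8 genes. Socs3 had the most, with 6 within 100 kb, followed by Lif, Lifr and Pim3 with 3 each and by Il6st, Stat3 and Pim1 with 2 each, while Jak1 had 0. At least 1 peak within 100 kb was found for 54.4% of all protein-coding genes. At least 2 were found for 26.1% of all genes and for the same 7 of the 8. The mean was 2.63 peaks per gene for the 8 genes and 0.992 for all protein-coding genes, and the medians were 2.5 and 1. As many as 6 peaks, the count of Socs3, were reached by 123 protein-coding genes (0.561%), and as many as 3 by 2477 (11.3%).

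By proximity, Pim1, Il6st, Socs3 and Lifr each had a peak centre within 10 kb of the TSS, as had 10.5% of all protein-coding genes. The closest peak lay 456 bp from Pim1, 1413 bp from Il6st, 5553 bp from Socs3, 8549 bp from Lifr, 11.2 kb from Lif, 31.0 kb from Pim3, 51.8 kb from Stat3 and 228.7 kb from Jak1. Their median was 9.88 kb, against 85.3 kb over the 21755 protein-coding genes on chromosomes with a peak. Of all protein-coding genes, 388 (1.77%) had a peak as close as Pim1 and 611 (2.79%) had one as close as Il6st.

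Assigning each peak to its single nearest protein-coding gene left 4 peaks to Lifr, 3 to Socs3, 2 each to Lif, Il6st, Pim1 and Pim3, and 0 to Stat3 and Jak1. Thus 6 of the 8 genes received a peak in this way, against 24.4% of all protein-coding genes. When non-coding genes could also be the nearest, 8 of the 15 peaks and 4 of the 8 genes were left, with Lif and Pim3 at 0. With the start of every transcript in place of the gene start, Pim3 went from 2 peaks to 0 and the other 7 genes kept their counts. No share over all genes is given under either of these alternatives, and the 24.4% is not their background.

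**Figure D1:**
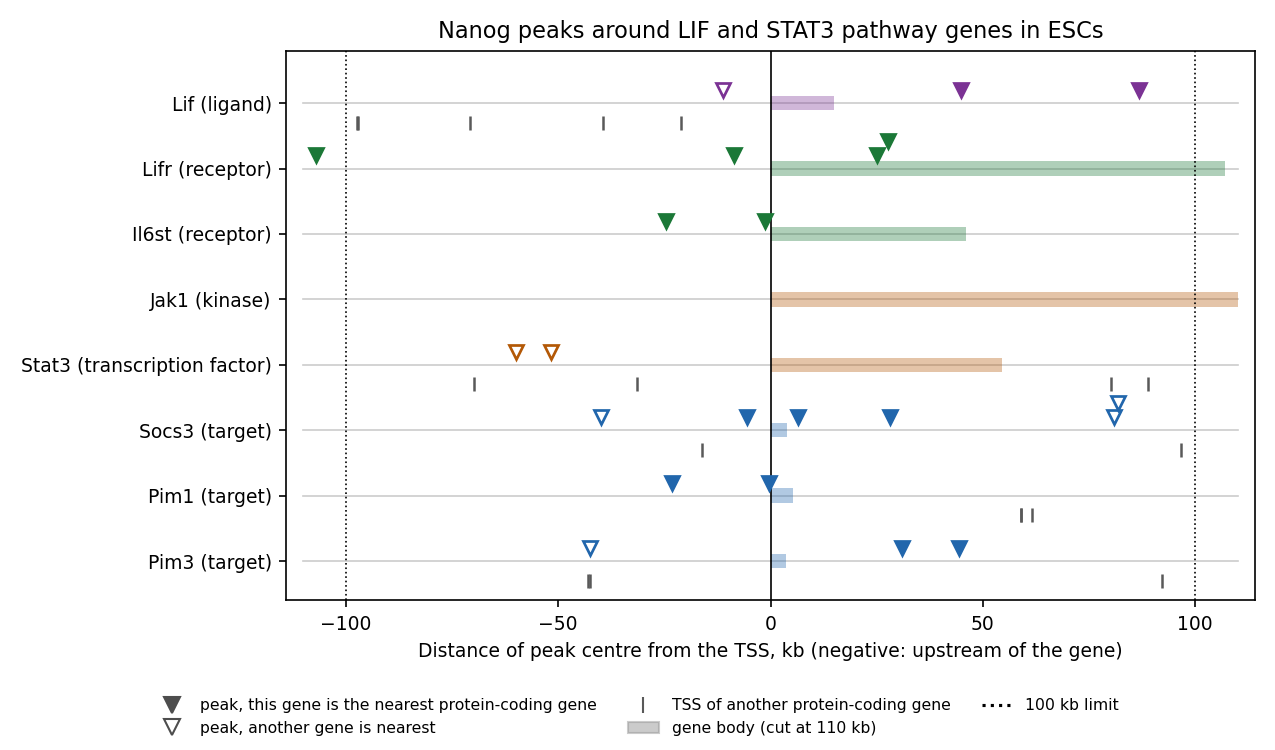
Positions of Nanog peak centres (triangles) relative to the TSS of each of the 8 genes, in kb, with transcription running to the right. Filled triangles mark peaks for which the gene was the nearest protein-coding gene, open triangles those nearer to another gene, grey ticks the TSSs of other protein-coding genes and shaded bars the gene bodies. The row of Jak1 is empty, and both peaks of Stat3 are open.

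**Figure D2:**
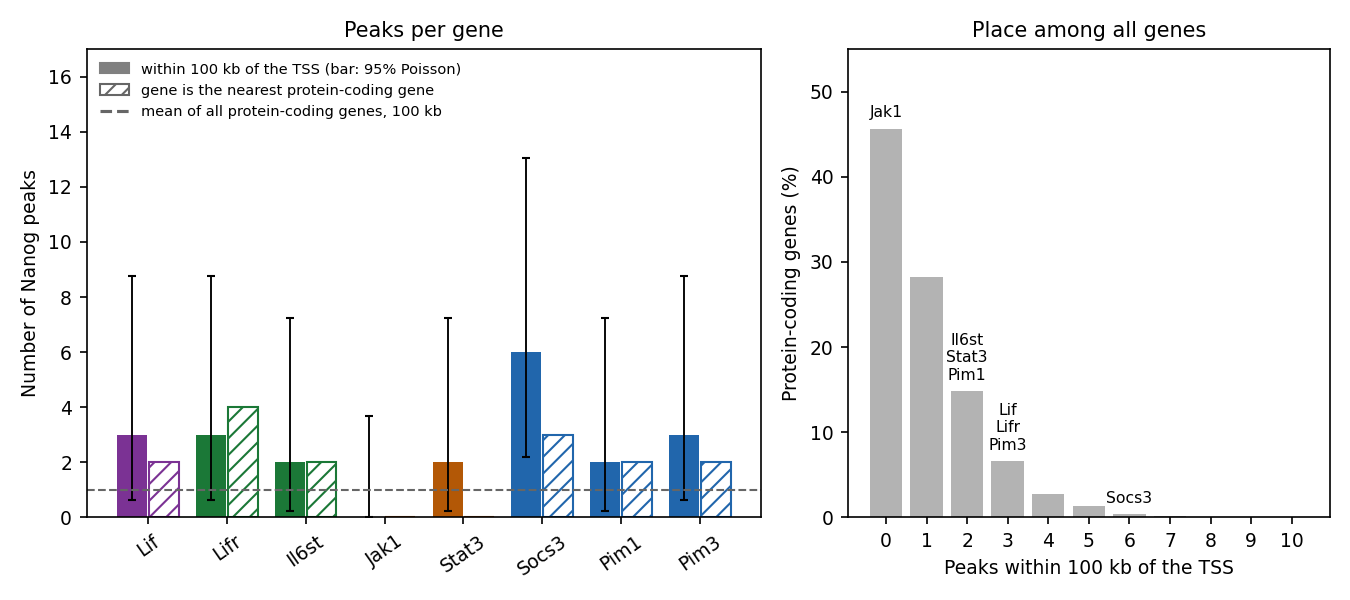
Left, number of Nanog peaks within 100 kb of each TSS (filled bars, with exact 95% Poisson intervals) and number with the gene as nearest protein-coding gene (hatched bars), with the mean over all protein-coding genes as a dashed line. Right, percentage of protein-coding genes by number of peaks within 100 kb, with the 8 genes written above their class. Socs3 sits at 6 peaks, in the tail of the distribution, and Jak1 at 0, in its largest class.

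A sequence is shown for each gene with a peak within 100 kb, from its closest peak on the plus strand of GRCm38 (mm10), as the whole peak or the 300 bases about its centre. For Lifr, stretches of a further peak are added. Capitals mark copies of short consensus motifs found on either strand. These were the STAT palindrome TTCCNGGAA (strict) and its looser form TTCNNNGAA, which contains every strict copy, the Oct octamer ATGCAAAT, the Sox motif (CCATTGT or CCTTTGT), the Nanog core CCATTA, the Klf motif (GCCACACCC or GCCACGCCC or GCCCCACCC or GCCCCGCCC) and the Esrrb motif TCAAGGTCA. A copy describes the letters at a position and is not a measurement of binding by the factor.

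Lif encodes the ligand itself (ENSMUSG00000034394.14, chromosome 11, 4257557 to 4272514, plus strand). Its closest peak, from 4246054 to 4246654, lay 11203 bp upstream and was 601 bp wide, which ranked 246 of 8735 by width. It fell between Lif and Osm, the gene of the related cytokine oncostatin M, and was nearer to the TSS of Osm (9934 bp). The other peaks lay between genes downstream of Lif, from 4302241 to 4302615 at 44.9 kb and from 4344155 to 4344465 at 86.8 kb. Both had Lif as the nearest protein-coding gene, but the TSSs of the lincRNA gene Gm11958 (16968 bp) and of the snRNA gene Gm24803 (20055 bp) lay closer to them. The centre of the peak between Osm and Lif is shown because it lay between the TSSs of both cytokine genes, and it held none of the motifs.
Lif peak, chr11:4246205-4246504: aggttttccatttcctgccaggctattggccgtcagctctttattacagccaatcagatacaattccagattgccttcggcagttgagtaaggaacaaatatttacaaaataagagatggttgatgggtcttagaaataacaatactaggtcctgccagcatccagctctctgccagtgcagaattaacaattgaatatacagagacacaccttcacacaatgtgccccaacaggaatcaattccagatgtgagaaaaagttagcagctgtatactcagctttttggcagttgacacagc

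Lifr encodes the subunit that gives the receptor its specificity for LIF (ENSMUSG00000054263.12, chromosome 15, 7090614 to 7197489, plus strand). With Il6st and Jak1 it was among the genes with no other protein-coding TSS within 100 kb, a group of 2827 genes of which 42.2% had a peak in that window. The 3 peaks within 100 kb were 1 between genes, 8549 bp upstream (7081749 to 7082381), and 2 in an intron, at 25.1 kb (7115317 to 7116159) and 27.6 kb (7118110 to 7118345) downstream of the TSS. The intronic peaks were 1950 bp apart and lay 13821 and 11332 bp upstream of the closest start of another annotated Lifr transcript, so that their position relative to Lifr depends on the transcript taken. A further peak, 107.1 kb upstream (6983303 to 6983766), had Lifr as nearest gene from outside the window.

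The Lifr peaks included the widest of the 22. The intronic peak at 25.1 kb measured 843 bp and ranked 20 of 8735, the upstream peak measured 633 bp and ranked 174, and the distant one measured 464 bp. The other intronic peak was 236 bp wide, 1 bp above the smallest width in the list (235 bp). Width cannot be taken for strength of binding, which the list does not give.

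The widest Lifr peak was the single peak of the 21 with a strict STAT copy. At 843 bp, more bases were searched in it than in any other. Over all peaks the strict copy was in 1.33%, and over all flanks in 1.02%. The widest Lifr peak held 3 loose STAT copies, from base 201, base 220 and base 368 of the peak, of which the first was strict. It also held 2 octamers in opposite orientation, from base 546 and base 584, with 30 bases between them. The strict copy and both octamers lay outside the 200 bp about the centre of the peak. The first stretch shown holds the copies from base 201 and base 220, and the copy from base 368 lies outside it, while the second holds both octamers. They are shown because no other peak near these genes held STAT and Oct copies together, a choice made after the copies had been counted. The share of all peaks, or of peaks this wide, that hold both is not given. Holding both is therefore not shown to be unusual. The upstream peak, shown first, held a Sox copy, a loose STAT copy and, outside the 300 bases shown, a Nanog core copy.
Lifr upstream peak, chr15:7081916-7082215: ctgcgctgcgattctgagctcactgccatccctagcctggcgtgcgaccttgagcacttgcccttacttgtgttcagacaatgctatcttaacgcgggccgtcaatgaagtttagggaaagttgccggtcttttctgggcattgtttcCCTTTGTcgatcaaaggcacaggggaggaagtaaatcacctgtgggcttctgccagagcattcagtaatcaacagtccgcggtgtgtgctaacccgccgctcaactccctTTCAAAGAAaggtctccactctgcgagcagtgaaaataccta
Lifr intronic peak, STAT copies, chr15:7115371-7115670: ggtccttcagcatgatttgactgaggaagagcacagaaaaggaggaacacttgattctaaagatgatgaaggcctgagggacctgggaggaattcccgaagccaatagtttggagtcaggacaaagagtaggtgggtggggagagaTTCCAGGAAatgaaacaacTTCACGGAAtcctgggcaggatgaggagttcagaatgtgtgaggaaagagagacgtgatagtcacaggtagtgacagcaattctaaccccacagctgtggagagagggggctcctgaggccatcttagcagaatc
Lifr intronic peak, octamers, chr15:7115854-7115915: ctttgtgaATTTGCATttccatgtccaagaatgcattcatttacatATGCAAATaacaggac

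Il6st encodes gp130, the signalling subunit shared by the cytokines of the IL-6 family (ENSMUSG00000021756.12, chromosome 13, 112464070 to 112510086, plus strand). Both of its peaks lay upstream and between genes, at 1413 bp (112462458 to 112462856, 399 bp wide) and at 24.5 kb (112439431 to 112439688, 258 bp wide). Il6st was the nearest protein-coding gene of both, and the lincRNA gene Gm48879 lay 2963 bp from the farther one. The proximal peak is shown because it held an octamer and 2 Sox copies within its central 300 bases. It was 1 of 2 peaks in the set with an octamer, the other being the wide intronic peak of Lifr.
Il6st peak, chr13:112462508-112462807: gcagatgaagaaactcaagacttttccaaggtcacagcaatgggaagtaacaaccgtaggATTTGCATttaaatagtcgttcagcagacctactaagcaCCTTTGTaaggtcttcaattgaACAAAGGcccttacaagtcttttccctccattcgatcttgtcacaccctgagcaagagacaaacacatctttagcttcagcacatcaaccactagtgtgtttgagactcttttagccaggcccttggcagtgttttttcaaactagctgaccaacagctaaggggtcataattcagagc

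Jak1, the kinase (ENSMUSG00000028530.14, chromosome 4, 101152367 to 101265282, minus strand), was the only 1 of the 8 genes with no peak within 100 kb. Its TSS lay in a stretch of 650.9 kb without a peak, from 100842959 to 101493851. Of the 8715 gaps between neighbouring peaks of a chromosome, 975 (11.2%) were as long, and the median gap was 122.5 kb. Gaps were counted equally whatever their length, and long gaps can hold more TSSs. The share therefore does not place Jak1 among genes. Of all protein-coding genes, 77.6% had a peak as close as Jak1, and 45.6% had 0 within 100 kb. The closest peak, 228.7 kb upstream of Jak1 and 247 bp wide, had Dnajc6 as its nearest gene. No peak appeared when the window was widened to 200 kb, and the exact Poisson interval of the count at 100 kb ran up to 3.69 peaks.

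Stat3, the transcription factor of the pathway (ENSMUSG00000004040.16, chromosome 11, 100885098 to 100939540, minus strand), had 2 peaks within 100 kb, both upstream and between genes. They spanned 100991173 to 100991431 (51.8 kb, 259 bp wide) and 100999257 to 100999654 (59.9 kb, 398 bp wide) and were 7825 bp apart. Both were nearer to Atp6v0a1, a subunit gene of the vacuolar proton pump, at 18.2 and 9.997 kb, and 7 and 8 protein-coding TSSs lay within 100 kb of them. At a window of 50 kb Stat3 had 0 peaks, and its gene body and the TSSs of the neighbouring Stat5a and Stat5b lay in a stretch of 309.0 kb without a peak. The closer of the peaks is shown whole and held none of the motifs, and the other held a Sox copy.
Stat3 peak, chr11:100991173-100991431: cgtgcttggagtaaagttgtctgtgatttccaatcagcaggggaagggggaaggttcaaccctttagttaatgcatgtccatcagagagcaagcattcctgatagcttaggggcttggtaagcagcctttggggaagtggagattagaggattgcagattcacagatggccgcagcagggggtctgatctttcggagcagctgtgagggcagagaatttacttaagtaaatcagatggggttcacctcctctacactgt

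Socs3, the feedback inhibitor (ENSMUSG00000053113.3, chromosome 11, 117966079 to 117970047, minus strand), was flanked on both sides. Upstream of the TSS, peaks lay at 5553 bp (117975470 to 117975731, 262 bp wide) and at 39.8 kb (118009660 to 118010116, 457 bp), the latter in an intron of Pgs1. Downstream, they lay at 6436 bp (117963449 to 117963773, 325 bp), at 28.0 kb (117941805 to 117942242, 438 bp), and at 80.9 and 81.7 kb (468 and 339 bp). The last 2 were 392 bp apart and nearer to Tha1, and 10 protein-coding TSSs lay within 100 kb of them, so that Socs3 shared them with many genes. The 3 peaks from 28.0 kb downstream to 5553 bp upstream had Socs3 as the nearest gene. The TSS itself lay in a gap of 11.7 kb between peaks, which 87.4% of all gaps, counted equally whatever their length, equalled or exceeded.

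GC content differed widely between the Socs3 peaks, from 51.6% to 68.3%. The peak 6436 bp downstream was the richest of them and held no motif copy. The upstream peak at 5553 bp, shown whole, held 2 Sox copies, the peak at 28.0 kb held 1, and the peak at 80.9 kb held a loose STAT copy.
Socs3 peak, chr11:117975470-117975731: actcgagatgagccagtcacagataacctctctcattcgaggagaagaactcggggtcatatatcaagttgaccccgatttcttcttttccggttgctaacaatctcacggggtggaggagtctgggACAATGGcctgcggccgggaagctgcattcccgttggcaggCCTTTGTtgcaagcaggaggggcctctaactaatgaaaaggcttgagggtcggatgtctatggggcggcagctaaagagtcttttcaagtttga

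Pim1 encodes a serine/threonine kinase that promotes cell survival (ENSMUSG00000024014.8, chromosome 17, 29490753 to 29496112, plus strand). It had the most proximal peak of the set, from 29490086 to 29490509, centred 456 bp upstream and 424 bp wide, with a GC content of 65.8%. This peak ended 25 bases before the promoter window that RefSeq sequences of GRCm38.p6 define for Pim1 (250 bases before to 50 after the start). No peak overlapped such a window at any of the 8 genes. The share of all protein-coding genes with such an overlap is not given, so its absence here cannot be called particular to these genes. The other peak lay 23.2 kb upstream (29467420 to 29467755, 336 bp) in an exon of the non-coding gene Gm26885, whose intron held the proximal peak. The proximal peak is shown because of its position, and it held none of the motifs.
Pim1 peak, chr17:29490148-29490447: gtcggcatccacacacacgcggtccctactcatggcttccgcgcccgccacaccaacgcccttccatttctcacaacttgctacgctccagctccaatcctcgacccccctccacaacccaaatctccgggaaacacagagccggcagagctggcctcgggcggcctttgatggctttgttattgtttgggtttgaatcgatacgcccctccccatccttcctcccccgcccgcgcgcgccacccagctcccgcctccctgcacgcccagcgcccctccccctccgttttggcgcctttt

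Pim3 encodes a related kinase (ENSMUSG00000035828.11, chromosome 15, 88862186 to 88865726, plus strand) and had 3 peaks within 100 kb, none of them within 30 kb. The peaks at 31.0 kb (88893031 to 88893370, 340 bp) and 44.4 kb (88906480 to 88906747, 268 bp) downstream lay in introns of Ttll8 and were 13.1 kb apart. The peak at 42.5 kb upstream (88819495 to 88819877, 383 bp) lay 40 bp from the TSS of Creld2, in its untranslated region, had the highest GC content of the set (72.1%) and held the single Klf copy. The peak at 31.0 kb is shown as the closest and held a loose STAT copy.
Pim3 peak, chr15:88893051-88893350: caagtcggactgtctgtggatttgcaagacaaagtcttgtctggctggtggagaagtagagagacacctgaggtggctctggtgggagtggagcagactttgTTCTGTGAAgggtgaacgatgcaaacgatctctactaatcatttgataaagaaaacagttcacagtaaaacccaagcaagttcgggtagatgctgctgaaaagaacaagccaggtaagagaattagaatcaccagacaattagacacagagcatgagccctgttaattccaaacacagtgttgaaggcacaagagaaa

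Compared by role, the targets had 3.67 peaks per gene within 100 kb (11 peaks over 3 genes, exact Poisson interval 1.83 to 6.56), the receptor subunits 2.5 (5 over 2, 0.812 to 5.83), and Jak1 with Stat3 1 (2 over 2, 0.121 to 3.61). Lif, the single ligand, had 3 (0.619 to 8.77). The ratio of targets to receptor subunits was 1.47, with an exact interval of 0.470 to 5.39. It was 3.67 (0.80 to 34.0) for targets against Jak1 and Stat3 and 2.5 (0.409 to 26.3) for receptor subunits against Jak1 and Stat3. At 100 kb each of the 3 intervals included 1, so these counts did not separate the roles. These intervals hold only the error of counting and take each peak as independent of the others. With a window of 200 kb the first ratio fell below 1 (0.8, 0.317 to 2.07) while the last rose to 5 (1.07 to 46.9). That last interval did not include 1, so the result for receptor subunits against Jak1 and Stat3 depended on the window. For single genes no ratio is given. The interval of Socs3 (2.20 to 13.1) overlapped that of Jak1 (0 to 3.69), which does not by itself decide whether their counts differ.

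The 21 peaks were described further by properties that their choice did not use. Of their centres 13 lay between genes, 6 in introns, 1 in an exon of a non-coding gene and 1 in an untranslated region. By side, 11 were upstream and 10 downstream of the gene they were counted for. Neither split is given for all peaks, so these counts do not set the 21 apart. Their median width was 375 bp (range 236 to 843 bp), against 319 bp (quartiles 265 and 393 bp) for all peaks, and 15 of the 21 (71.4%, exact interval 47.8 to 88.7) were at or above the median of all peaks, as were 50.2% of all. Median GC content was 51.6% against 47.7%. A repeat-masked base at the centre was found in 1 peak of the 21 (4.76%, 0.120 to 23.8) and in 20.4% of all peaks, and a neighbouring peak within 12.5 kb in 8 (38.1%, 18.1 to 61.6) and in 24.1%. Each of these intervals included the value of all peaks.

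**Figure D3:**
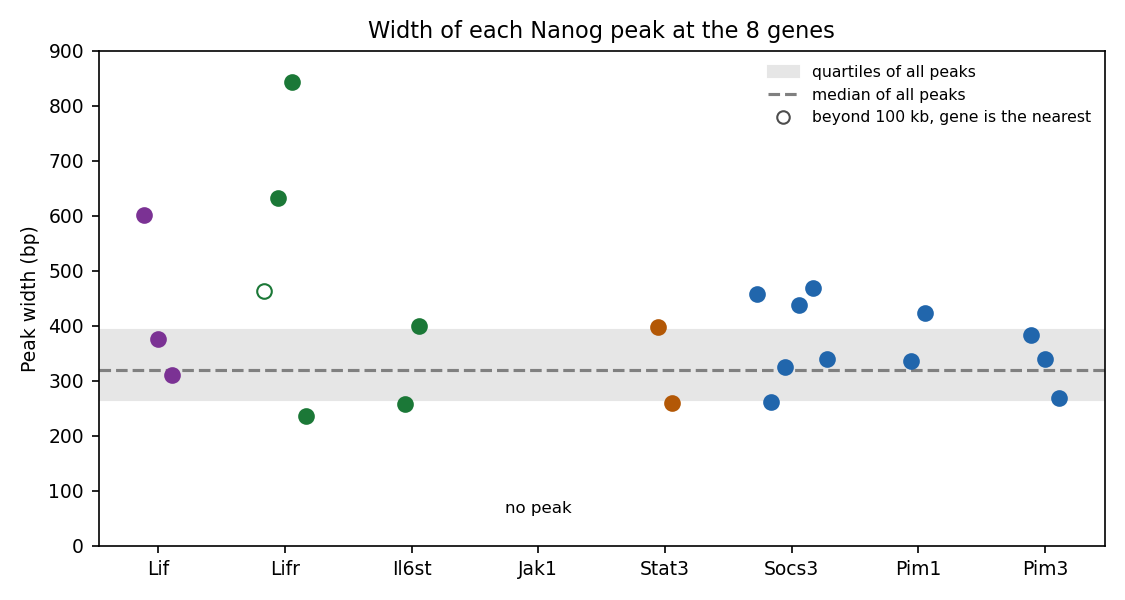
Width in bp of each Nanog peak at the 8 genes, ordered within a gene from upstream to downstream, with the median (dashed line, 319 bp) and quartiles (grey band) of all 8735 peaks. The open circle is the Lifr peak 107.1 kb upstream. The 843 bp peak in the Lifr intron stands above all others, and Jak1 has no peak.

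Motif copies were counted in the 21 peaks, in their 42 flanks (windows of the same width, 1 kb beyond each edge) and in all peaks. A loose STAT copy was present in 5 of the 21 peaks (23.8%, 8.22 to 47.2), in 21.4% of their own flanks, in 9.71% of all peaks and in 10.8% of all flanks, and the intervals of these peaks and of their flanks overlapped. The strict STAT copy was in 1 peak (4.76%, against 1.33% of all peaks). Sox copies were in 6 (28.6%, 11.3 to 52.2), close to the 28.2% of all peaks and above the 11.9% of their own flanks (3.98 to 25.6), with intervals that overlapped. The octamer was in 2 (9.52%, against 5.72%), Nanog core and Klf in 1 each (4.76%, against 18.1% and 8.998%), and Esrrb in 0, against 3.53% of all peaks, which 21 peaks cannot tell from the interval of 0 to 16.1%. Among the 15 peaks with 1 of the 8 genes as nearest gene the Nanog core share was 13.3%. The wider a peak, the more bases were searched, and the median width of the 21 peaks was above that of all peaks, and the part of width in these shares was not tested.

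**Figure D4:**
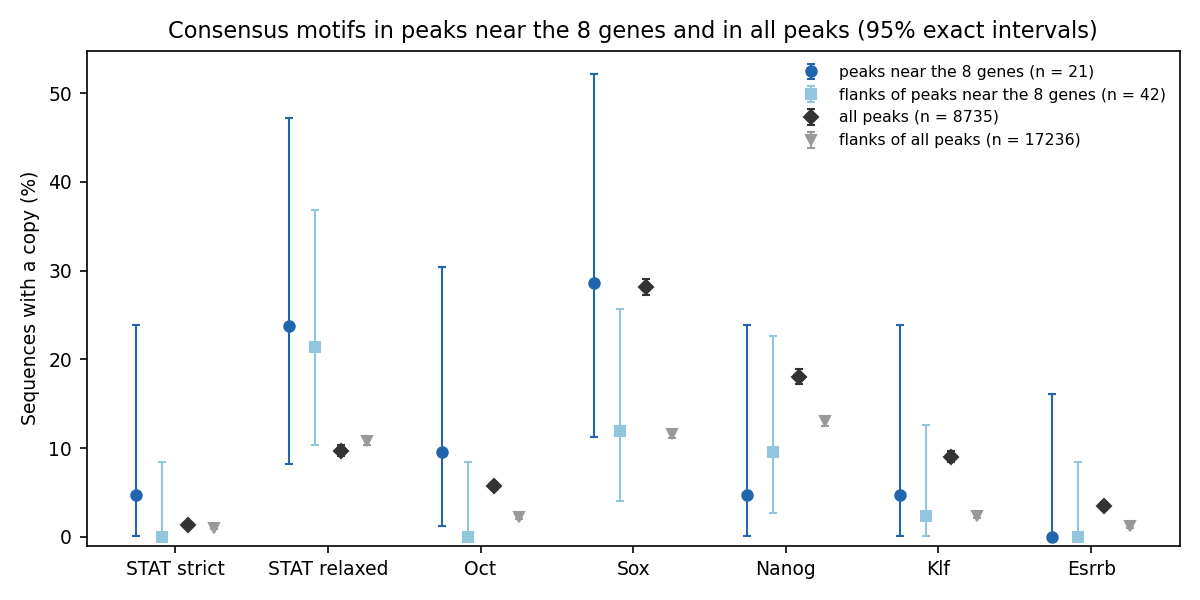
Percentage of sequences with at least 1 copy of each consensus motif, on either strand, with exact 95% intervals. Circles are the 21 peaks within 100 kb of the 8 genes, squares their flanks, diamonds all 8735 peaks and triangles the flanks of all peaks. For every motif the interval of the 21 peaks includes the value of all peaks.

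Other genes of the pathway were examined from a list of 43. Of these, 29 (67.4%) had a peak within 100 kb and 16 (37.2%) were the nearest protein-coding gene of a peak, beside the 54.4% and 24.4% of all protein-coding genes, and their closest peaks lay a median of 53.6 kb away. Among the targets of Stat3 all 11 had a peak within 100 kb and 8 were the nearest gene of one, with a median closest distance of 12.7 kb. Several of these targets are themselves regulators of pluripotency, and the count describes the list as chosen.

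Within that list Tfcp2l1 and Klf4, transcription factors downstream of LIF in ESCs, had 5 peaks each within 100 kb and were each the nearest gene of 5 peaks. The closest lay 1308 bp from Tfcp2l1 and 16.3 kb from Klf4. Mcl1, which encodes a survival protein, had 4 peaks, the closest at 4896 bp.

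Of the remaining roles, a peak within 100 kb was found for 4 of 6 other ligands of the family (66.7%), 9 of 13 inhibitors and phosphatases (69.2%), 3 of 6 STAT genes (50%), 1 of 3 kinases and 1 of 4 receptor genes, beside 54.4% of all protein-coding genes. These groups are small, and no difference between them was tested. The ligand with the closest peak was Osm (9.93 kb), which shared both of its peaks with Lif, and the receptor was Il6ra (23.5 kb, 4 peaks). Among the kinases Tyk2 had 4 peaks with the closest 29 bp from its TSS, while Jak2 and Jak3, like Jak1, had 0 within 100 kb. Stat2 had 4 peaks with the closest 69 bp from its TSS, and Stat5a and Stat5b, which neighbour Stat3, had 0. Socs2, an inhibitor related to Socs3, had 3 peaks with the closest at 1628 bp and was the nearest gene of 3. The windows of Tyk2 and Stat2 held 8 and 12 other protein-coding TSSs, and that of Socs2 held 3.

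**Figure D5:**
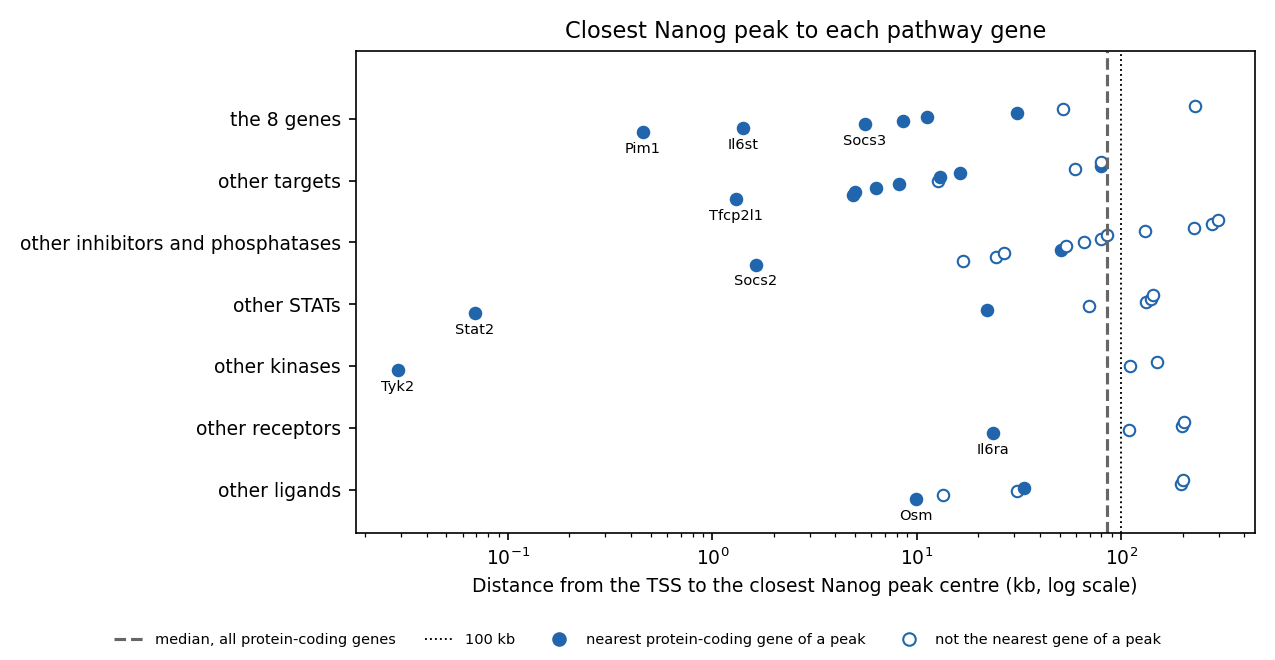
Distance in kb, on a log axis, from the TSS to the closest Nanog peak centre for the 8 genes (top row) and for 43 other pathway genes by role. Filled circles are genes that were the nearest protein-coding gene of a peak, the dashed line is the median of all protein-coding genes (85.3 kb) and the dotted line marks 100 kb. All 11 other targets lie left of the dotted line, as do 7 of the 8 genes.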

How the data were processed

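The submitters' processing notes name FastQC, Bowtie2, bedtools, SAMtools, MACS2 and mm10. Per the study's methods, which apply to Nanog the steps used for its reprogramming factor libraries, reads were aligned with Bowtie2, low-quality, duplicate, mitochondrial and blacklisted entries were removed, and MACS2 called the peaks. Input signal was subtracted in the coverage tracks, which were not used here. The threshold of the MACS2 call, and whether that call took the input as control, are not given in the sources used here. The authors deposited chromosome, start and end of each peak in base pairs, without score, p-value or summit, so the reads behind a peak cannot be told from the list. Of 8860 lines, 8737 were distinct and 123 repeated an interval.

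Genes and transcripts came from GENCODE vM21 and sequence from GRCm38.p6, the assembly of mm10. Positions are 1-based. A TSS was the 5′ end of the annotated gene, and distance ran from the middle base of the peak, with a nearest gene at most 1000 kb away. At the middle base, coding exons took precedence over untranslated regions, these over other exons and these over introns. Flanks with N bases or overlapping a peak were left out. Counts carry exact 95% Poisson intervals, shares Clopper-Pearson intervals, and ratios of counts the interval of the corresponding share. No p-value was computed, since peaks of 1 library are not replicates. Python 3.11.15, pandas 2.3.3 and scipy 1.17.1 were used, and counting was tested on simulated data.

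All 8 genes were named with each of their peaks. Of the other pathway genes, the 5 with the most peaks (ties by the closest) and the gene with the closest peak in each role were named, with STAT and JAK relatives of the 8 genes added afterwards. The members and lists were chosen with earlier results of these data known.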

Additional observations from a re-analysis of the deposited data

How the results depend on the processing

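Alternatives were windows of 50 and 200 kb, transcript starts, distance to the peak edge, all annotated genes or a limit of 100 kb for the nearest gene, merging within 300 bp, peaks at or above the median width, every line of the list and, for motifs, 200 bp about the centre or the peaks with 1 of the 8 genes as nearest gene. Of 69 values recomputed for the sets, 65 stayed within 1.5 times the count or within the interval of the value reported. This tally is a weak check. Distance to the peak edge, merging within 300 bp and every line of the list changed none of the values recomputed under them. Wide intervals, such as 0.80 to 34.0 for a ratio, also let large changes pass as unchanged. The peaks with 1 of the 8 genes as nearest gene fell from 15 to 8 with all annotated genes, where more genes compete. In 200 bp about the centre the strict STAT and the Nanog core share were both 0%, and among the nearest-gene peaks the Klf share was 0%, each from 4.76% or 1 peak, where fewer bases or fewer peaks were searched. In the 200 bp the octamer share went from 9.52% to 4.76% and the loose STAT share from 23.8% to 14.3%, while among the nearest-gene peaks the Nanog core share went from 4.76% to 13.3%. The 21 peaks numbered 16 at 50 kb, 29 at 200 kb and 15 among wider peaks. Of 112 counts for single genes, 13 moved by more than 1.5 times. At 50 kb the ratios to Jak1 and Stat3 had a count of 0 below the line and gave no value. No paired analysis was possible because 1 sample has values. A list without scores cannot show sites below the threshold of the call.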

Other observations

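Widening the window from 100 kb to 200 kb raised Il6st from 2 peaks to 5 and Lif and Lifr from 3 to 5 each. Pim3 went from 3 to 4, while Socs3 stayed at 6, Stat3 and Pim1 at 2 and Jak1 at 0. These counts are small, and no value over all protein-coding genes is given at 200 kb. Differences between the genes in this gain were not tested. The Lifr peak 107.1 kb upstream was also the closest peak to Osmr, the gene of the oncostatin M receptor, whose TSS lay 108.6 kb away on its other side.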
